A study of Rattus norvegicus with 6 samples.

Results

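The endothelial growth factor Vegfa and its receptors Kdr and Flt1 were followed in bone of growing rats, as 3 of the 32545 gene rows of the count table. They were chosen by Ensembl ID: ENSRNOG00000019598 for Vegfa, ENSRNOG00000046829 for Kdr and ENSRNOG00000000940 for Flt1. All 3 rows were present, and all 3 had enough reads to be among the 13431 genes tested. The RefSeq rat gene table lists the 3 symbols but pairs no symbol with an Ensembl ID, so the pairs of ID and symbol were taken as given and could not be checked. Polyadenylated RNA of femur was sequenced in Wistar rats, an outbred laboratory strain, from 3 control libraries and 3 libraries of chronic sleep deprivation (CSD). The labels name no allele, transgene or drug in either group. Labelled ages were 12, 13 and 14 weeks in controls 1, 2 and 3 and 15, 16 and 17 weeks in CSD 1, 2 and 3, whereas the series description gives 12 weeks for all. Group and labelled age cannot be told apart. Whether each library is a different animal is not labelled, so the p-values rest on the spread from library to library alone, and that spread may be technical. The sources used here do not describe the deprivation method, the part of the femur or whether marrow was removed.

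VEGF-A is a secreted growth factor that makes endothelial cells divide, migrate and sprout, and in growing bone it draws vessels into the growth plate, where cartilage is replaced by bone. Hypertrophic chondrocytes and osteoblasts are known sources, and its gene is a classic target of the hypoxia inducible factors. Kdr, also called VEGFR-2, is the receptor tyrosine kinase that carries most of the signal in endothelium, in part through PI3K and AKT, the pathway in the series title. Flt1, also called VEGFR-1, binds VEGF-A more tightly but signals weakly, and a soluble splice form of it acts as a decoy. Flt1 is also known on monocytes and macrophages.

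The sequences upstream of the 3 genes are shown as background, and their relation to the levels of the genes was not tested. They are RefSeq sequences of build GRCr8, whereas the reads were placed on rn6, and each is on the plus strand, 5′ to 3′. Capitals mark any of 4 motifs searched on both strands. These were the GC box, GGGCGG, the TATA box, TATAAA, the cyclic AMP response element, TGACGTCA, and the hypoxia response element core, ACGTG. No 2 of the sites found overlapped. The Vegfa and Kdr stretches end at the base before the annotated gene start, chr9:22452604-22452853 and chr14:32571813-32572030. The window of Flt1 lies inside the annotated span of its gene, and only 30 bases around its TATA box, chr12:12333343-12333372, and around its cyclic AMP response element, chr12:12333295-12333324, are printed, each with that motif alone in capitals.
Vegfa, upstream: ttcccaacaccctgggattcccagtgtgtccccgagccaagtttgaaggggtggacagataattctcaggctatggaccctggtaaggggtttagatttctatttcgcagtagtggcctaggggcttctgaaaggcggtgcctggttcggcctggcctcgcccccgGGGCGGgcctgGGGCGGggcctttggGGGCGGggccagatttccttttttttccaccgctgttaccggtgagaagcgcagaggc
Kdr, upstream: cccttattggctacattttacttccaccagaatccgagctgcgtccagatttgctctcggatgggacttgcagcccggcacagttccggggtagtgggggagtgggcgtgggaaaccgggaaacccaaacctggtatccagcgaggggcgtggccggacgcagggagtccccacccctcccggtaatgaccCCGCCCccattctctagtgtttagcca
Flt1, cyclic AMP response element: gggggacccctTGACGTCActagaaggagg
Flt1, TATA box: gctggggaaggtTATAAAtcgcccccgccc

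In the 250 bases before the annotated transcript start, Vegfa held 3 GC boxes, Kdr 1 and Flt1 3. At least 1 GC box was present in 30.5% of all 33469 RefSeq windows of this length, which belong to 27457 genes. Such shares were not counted for the tested genes alone, so they are no measure of enrichment here. Flt1 also held 1 TATA box, found in 12.9% of windows, and 1 cyclic AMP response element, found in 1.59%. Neither was found in the Vegfa or Kdr windows. The hypoxia response element core, found in 16.6% of windows, was in none of the 3, and a further Vegfa start inside the gene had none of the 4 motifs. These are matches of letters in short windows, and no binding was measured. The known hypoxia element of Vegfa lies further upstream than this window reaches.

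Libraries held 8366443 to 9572898 reads in genes, and the 3 genes together took 863 to 1406 of them per library. Their share of gene reads was 0.0137% ± 0.0013 for the 3 controls and 0.0111% ± 0.0028 for the 3 CSD libraries (mean ± SD). That share is of library totals, without the TMM factors that adjust library size. These factors were 1.02 to 1.07 in controls and 0.912 to 1.00 in CSD libraries. On library totals alone the median log2 fold change of all tested genes was -0.13, so part of the lower share is common to many genes. Of all reads, 36.4% ± 0.303 fell in genes among controls and 37.6% ± 0.527 among CSD libraries (mean ± SD of 3), and its part in the results was not tested. Among the controls, control 1 stood nearest to the CSD libraries. Over all tested genes its mean Spearman correlation was 0.971 with the other controls and 0.969 with the CSD libraries, whereas for controls 2 and 3 these were 0.973 and 0.951, and 0.974 and 0.950. The fold changes of Vegfa, Kdr and Flt1 are therefore also given without control 1. Because control 1 was picked by its likeness to CSD, leaving it out can widen a group difference. The p-values without control 1 are thus descriptive only. Likeness was not computed for single CSD libraries, and the fits without CSD 1 are given as well. Endothelial, mural, blood and bone cell markers could not be matched to IDs, so the amount of endothelium in each library was not measured. In bulk tissue, fewer endothelial cells and less receptor RNA per cell cannot be told apart.

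Vegfa, the ligand, had nearly the same mean level in both groups and a wide spread within each. Reads numbered 427, 380 and 302 in controls 1, 2 and 3, which scaled to 47.9, 40.3 and 33.1 CPM (reads scaled to library size with TMM factors, in the usual unit). In CSD 1, 2 and 3 they numbered 514, 291 and 237, or 59.9, 33.4 and 27.9 CPM. CSD 1 was the highest of the 6 libraries and CSD 3 the lowest, so the CSD group enclosed all the controls. The means were 40.4 ± 7.43 CPM for controls and 40.4 ± 17.1 CPM for CSD (SD, n = 3 each). The log2 fold change, CSD minus control, was -0.0012 (SE 0.28), with a 95% interval from -0.64 to 0.64, or 0.641-fold to 1.56-fold. The gene did not pass the test (edgeR quasi-likelihood test, adjusted p = 0.999). No difference between the groups was detectable, and the interval still allows changes of either sign.

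The spread of Vegfa among libraries was well above counting error. The exact Poisson 95% interval ran from 54.8 to 65.3 CPM in CSD 1 and from 24.5 to 31.7 CPM in CSD 3, which covers counting error only. The coefficient of variation was 42.3% among CSD libraries and 18.4% among controls, where counting alone gives about 5.28%. The fitted biological coefficient of variation was 25.3%, against 18.3% on the trend for genes of this abundance. Of all tested genes, 73.7% had a smaller fitted dispersion. Without CSD 1, the highest library, the log2 fold change of Vegfa was -0.41 (SE 0.19; edgeR, adjusted p = 0.284). Without control 1 it was 0.14 (SE 0.31), without CSD 2 it was 0.11 and without CSD 3 it was 0.21. The direction for Vegfa thus depended on which library was left out.

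Kdr, the main signalling receptor, had a lower mean in CSD, by 19.3%, but it did not pass the test. It had 378, 591 and 505 reads in controls 1, 2 and 3, or 42.4, 62.6 and 55.3 CPM. In CSD 1, 2 and 3 it had 390, 354 and 368 reads, or 45.4, 40.6 and 43.3 CPM. Controls 2 and 3 were above all CSD libraries, and control 1 lay among them, so the groups overlapped. The mean was 53.5 ± 10.2 CPM for controls and 43.1 ± 2.42 CPM for CSD (SD, n = 3 each). The log2 fold change was -0.31 (SE 0.16; edgeR quasi-likelihood test, adjusted p = 0.444), with a 95% interval from -0.67 to 0.05, or 0.627-fold to 1.04-fold. The unadjusted p for Kdr from the same edgeR test was 0.0849. Of the tested genes, 19.1% had a smaller p, and 66.5% had a smaller fold change in either direction. The difference for Kdr was therefore of ordinary size among the genes of the table.

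In Kdr the 3 CSD libraries varied less than the 3 controls, and this difference in spread was not tested. The coefficient of variation was 5.62% in CSD, near the 4.82% that counting alone gives, and 19.1% in controls. The fitted biological coefficient of variation of Kdr was 16.1%. Without control 1 the log2 fold change of Kdr was -0.45 (SE 0.14), with an unadjusted edgeR p of 0.0127 and an adjusted p of 0.200. That library was picked by its likeness to CSD, so these p-values are descriptive only. Without control 2, the highest library, it was -0.18 (SE 0.15; edgeR, adjusted p = 0.732). Without CSD 1 the log2 fold change of Kdr was -0.36 (SE 0.18; edgeR, adjusted p = 0.321). Kdr was lower in CSD in each of these fits and passed the threshold in none.

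Flt1, the tight-binding receptor with the soluble decoy form, had a lower mean in CSD by 14.6%, within the spread of the libraries. Controls 1, 2 and 3 had 257, 435 and 346 reads, or 28.9, 46.1 and 37.9 CPM. CSD 1, 2 and 3 had 322, 249 and 258 reads, or 37.5, 28.6 and 30.4 CPM. Control 2 was the highest library, control 3 and CSD 1 were level, and control 1 lay with CSD 2 and CSD 3 at the bottom. The means were 37.6 ± 8.62 CPM for controls and 32.2 ± 4.73 CPM for CSD (SD, n = 3 each). The log2 fold change was -0.23 (SE 0.19; edgeR quasi-likelihood test, adjusted p = 0.639), with a 95% interval from -0.67 to 0.22, or 0.629-fold to 1.16-fold. Without control 1 the log2 fold change of Flt1 was -0.38 (SE 0.18; edgeR, adjusted p = 0.368), without control 2 it was -0.05 (SE 0.19; adjusted p = 0.942) and without CSD 1 it was -0.36 (SE 0.21; adjusted p = 0.375). Gene counts do not separate the membrane from the soluble form, nor the splice forms of Vegfa.

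**Figure D1:**
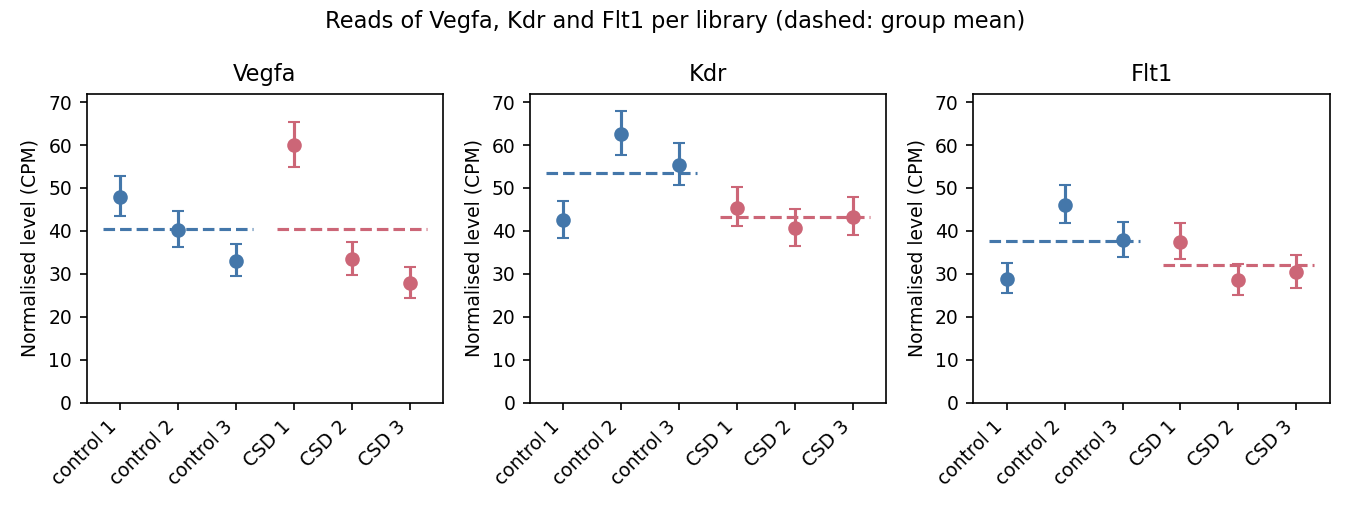
Level of Vegfa, Kdr and Flt1 in each library, in TMM-scaled CPM from an axis start of 0; blue points are controls, red points CSD, bars are exact Poisson 95% intervals (counting error only) and dashed lines are group means. For Kdr, controls 2 and 3 lie above the CSD libraries and control 1 lies among them; for Vegfa, CSD 1 is the highest library at 59.9 CPM and CSD 3 the lowest at 27.9 CPM.

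None of the 3 genes had an adjusted p under 0.05, and in the same edgeR test 0% of all 13431 tested genes did. DESeq2 called 297 genes and limma-voom 0 at that threshold. None of the 3 had an unadjusted p under 0.05, where 12.5% of tested genes did, 6.39% lower and 6.11% higher in CSD. Scaled to library totals alone, which moved the median of all tested genes to -0.13, Kdr had an unadjusted edgeR p of 0.0255 at a log2 fold change of -0.44 (adjusted p = 0.291). None of the 3 had CSD libraries all above or all below the controls, where 16.8% of tested genes did, 8.05% with the CSD libraries all lower and 8.77% with them all higher. The 3 fold changes had a median of -0.23 on the log2 scale, that of Flt1, beside 0.0026 over all tested genes. A median of 3 genes is the value of 1 of them and is no measure of a shift. For Flt1, 45.2% of tested genes had a larger difference in either direction. The median size of the difference over all tested genes was 0.20 on the log2 scale, and the values of both Flt1 and Kdr were larger in size than that. For Vegfa, 99.6% of tested genes had a larger difference in either direction.

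**Figure D2:**
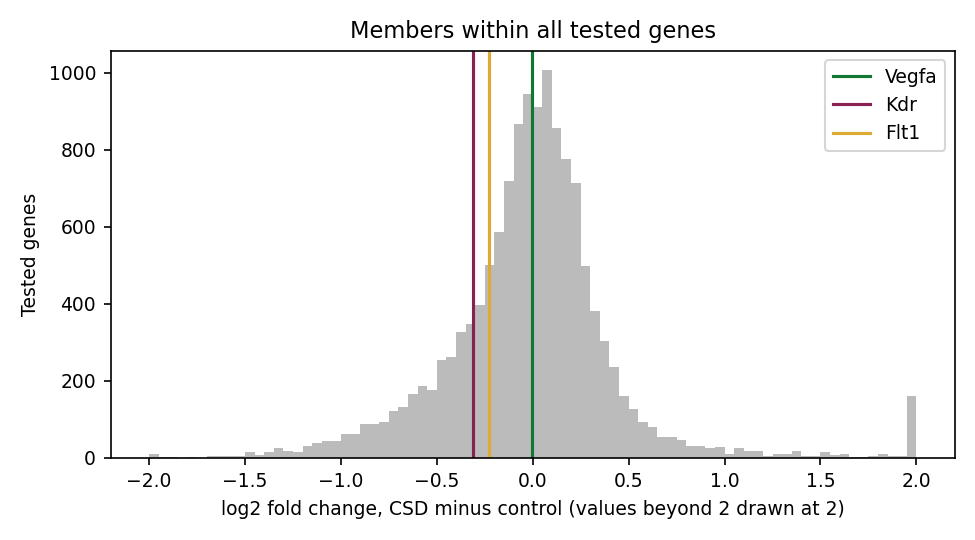
Histogram of the log2 fold changes, CSD minus control, of all 13431 tested genes, with values beyond 2 drawn at 2; coloured lines mark the 3 genes. Vegfa lies at the centre, and Flt1 (-0.23) and Kdr (-0.31) lie on the lower side, inside the bulk of the genes.

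The receptors ran together over the libraries. From lowest to highest, both Kdr and Flt1 were ordered CSD 2, control 1, CSD 3, CSD 1, control 3 and control 2. Poisson intervals of neighbours in this order overlapped in both genes, except that CSD 1 and control 3 were separate in Kdr. Overlap of such intervals does not by itself place a step within counting error, and single steps were not tested. Over the 6 libraries Pearson's r of their log2 CPM was 0.93 (exact permutation test, two-sided, p = 0.0014, adjusted over 3 pairs 0.0042) and Spearman's rho was 1.0 (exact permutation test, p = 0.0028, adjusted 0.0083). Without controls 2 and 3, the libraries farthest from the median of Kdr, r was 0.90 over 4 libraries. Libraries were shuffled across both groups, so these p-values do not separate a shared group difference from covariation within groups. The p of 0.0014 for r is the smallest that this permutation test can give. The points share library scaling and each library's mix of cells. Among the 13430 other tested genes 2.00% had a higher r with Kdr than Flt1 had, so many genes followed Kdr as closely.

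Vegfa had no detectable relation of this kind to its receptors, although with 6 libraries a relation could be missed. Its r was -0.015 with Kdr (exact permutation test, p = 0.986, adjusted 0.986) and 0.24 with Flt1 (p = 0.640, adjusted 0.960), and both rho values were 0.03 (exact permutation test, p = 1.0, adjusted 1.0). Without controls 2 and 3 the r with Kdr was 0.57, and without control 2 and CSD 2, the libraries farthest from the median of Flt1, the r with Flt1 was 0.21, each over 4 libraries. Control 1 and CSD 1 were the highest in Vegfa, whereas controls 2 and 3 were the highest in both receptors.

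**Figure D3:**
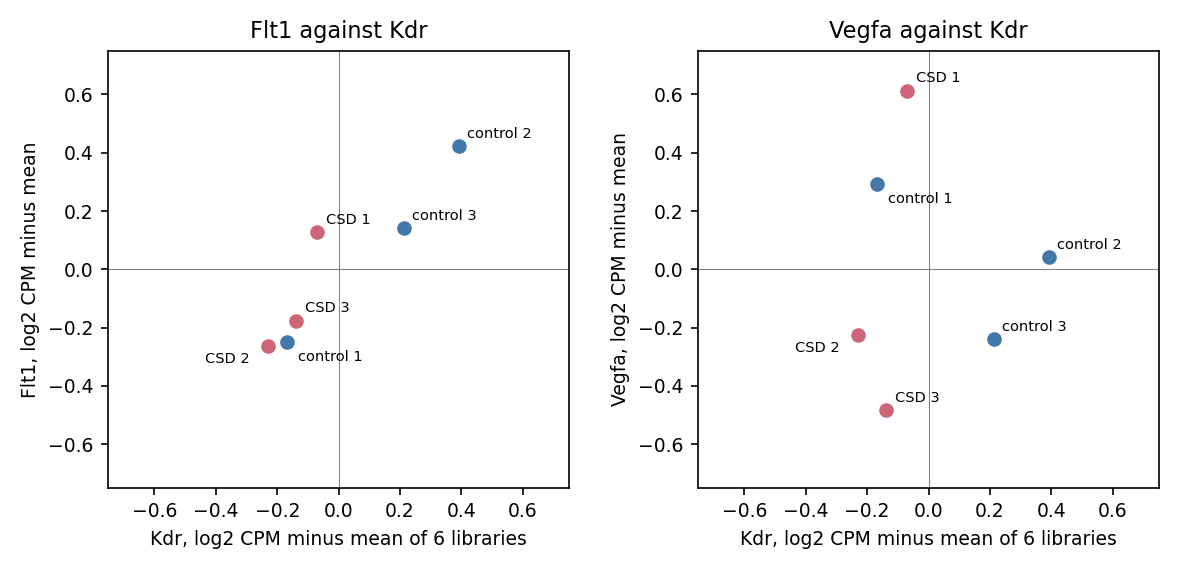
Each point is 1 library, blue for control and red for CSD; axes are log2 CPM minus the gene's mean over the 6 libraries. Flt1 rises with Kdr (r = 0.93), while Vegfa shows no such line with Kdr (r = -0.015).

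Ratios of reads within a library do not depend on library scaling. Flt1 had 0.680, 0.736 and 0.685 reads per read of Kdr in controls 1, 2 and 3. In CSD 1, 2 and 3 it had 0.826, 0.704 and 0.701. CSD 1 had the highest ratio, and the other CSD libraries lay between the controls. The mean log2 ratio of Flt1 to Kdr was -0.51 ± 0.06 for controls and -0.43 ± 0.13 for CSD (SD, n = 3 each), a difference of 0.08 (exact permutation test, two-sided, p = 0.5, adjusted over 3 ratios 0.6). With 3 libraries against 3 this test cannot give a p below 0.1. Annotated gene lengths enter these ratios but are the same in each library. The ratios are therefore compared between libraries only and say nothing of which receptor was more abundant. Whether the mix of splice forms, and so the length read, differed between libraries was not tested.

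Reads of the ligand per read of a receptor varied widely in both groups. Vegfa had 1.13, 0.643 and 0.598 reads per read of Kdr in controls 1, 2 and 3, and 1.32, 0.822 and 0.645 in CSD 1, 2 and 3. Its mean log2 ratio to Kdr was -0.40 ± 0.50 for controls and -0.17 ± 0.52 for CSD (SD, n = 3 each), a difference of 0.23 (exact permutation test, p = 0.5, adjusted 0.6). Relative to Flt1, Vegfa had 1.66, 0.874 and 0.873 reads per read in controls 1, 2 and 3 and 1.60, 1.17 and 0.919 in CSD 1, 2 and 3. The difference in mean log2 ratio to Flt1 was 0.15 (exact permutation test, p = 0.6, adjusted 0.6). Control 1 and CSD 1 had the highest ratios of Vegfa to each receptor, and the groups overlapped in all 3 ratios.

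**Figure D4:**
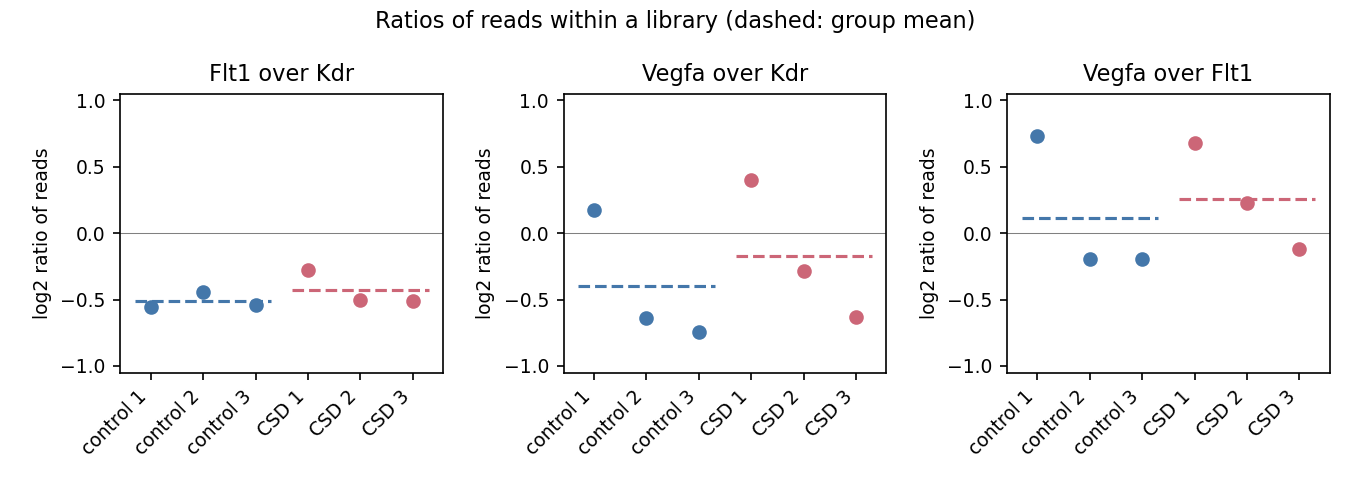
Log2 ratio of read counts of 2 genes within each library, blue for control and red for CSD, with group means dashed. The ratio of Flt1 to Kdr stays within a narrow band, while the ratios of Vegfa to either receptor are highest in control 1 and CSD 1.

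By the rule for likeness of pattern, the gene closest to each of the 3 over the 6 libraries was named by ID, because the files and the gene table do not pair it with a symbol. ENSRNOG00000014004 was closest to Vegfa, with r = 0.99 and a log2 fold change of 0.02 (edgeR, adjusted p = 0.981). ENSRNOG00000009161 was closest to Kdr, with r = 0.997 and a log2 fold change of -0.12 (edgeR, adjusted p = 0.668). ENSRNOG00000015505 was closest to Flt1, with r = 0.99 and a log2 fold change of -1.15 (edgeR, adjusted p = 0.535), and it had as few as 9 reads in a library. With 6 libraries such values are frequent: 103 genes had r above 0.9 with Vegfa, 388 with Kdr and 252 with Flt1. The other genes of the VEGF pathway, among them the further ligands, the neuropilin co-receptors, the angiopoietins and hypoxia targets, were not compared, as 0 of the listed symbols could be matched to an ID here.

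**Figure D5:**
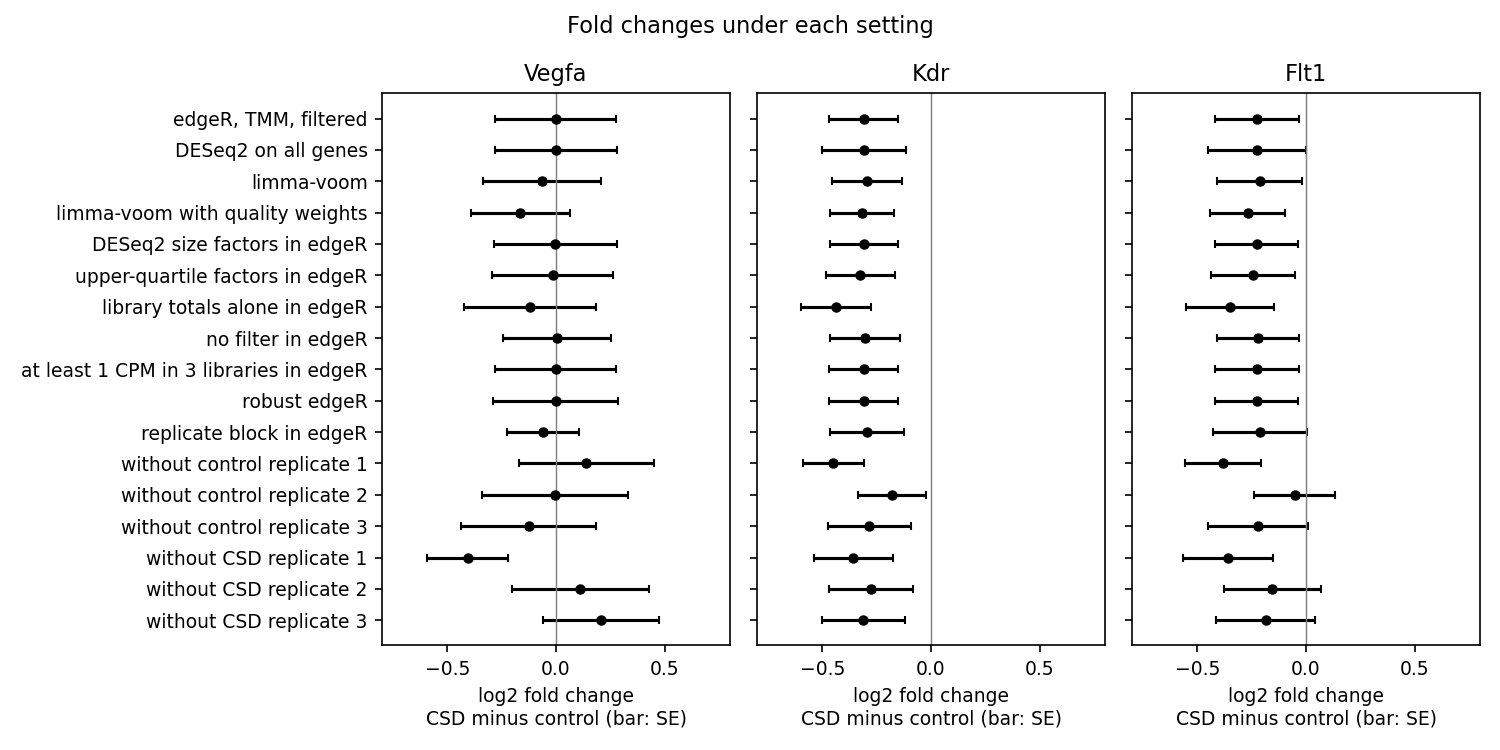
Log2 fold change, CSD minus control, of each gene under each setting of scaling, filter, test and left-out library; bars are standard errors. Kdr and Flt1 lie below 0 in all 17 fits shown, while Vegfa lies on both sides.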

How the data were processed

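The deposited table holds raw counts of reads for each gene, 1 column per library. The submitters' processing notes name HISAT2 2.2.1 and HTSeq 0.12.4, with rn6 as the genome. Annotation release, trimming and strand handling were not given in the sources used here, so sense and antisense reads cannot be told apart. The 5 closing rows that name no gene were left out. Of these, reads outside any feature took 45.5% to 47.1% of a library, and reads called ambiguous took 0.624% to 0.750%.

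Genes were kept with filterByExpr at its defaults and scaled with TMM factors. CSD was compared with control with edgeR 4.0.16 (glmQLFit, glmQLFTest, two-sided, no covariate, R 4.3.3), with Benjamini-Hochberg adjustment over all 13431 tested genes and a threshold of 0.05. Fold changes use a prior count of 0.125, and each SE was derived from the fold change and its F statistic. Log2 CPM use a prior count of 2, and ratios add 0.5 reads. Intervals for counts are exact Poisson intervals and cover counting error only. Alternatives were DESeq2 1.42.0, limma 3.58.1, other scalings and filters, a replicate block and leaving out each library. Members, lists and motifs were chosen with earlier results of these data known. The 3 members are named by rule; of other genes, the closest in pattern to each. Lists of pathway and cell type symbols were not tested, as 0 matched an ID.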

Additional observations from a re-analysis of the deposited data

How the results depend on the processing

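Kdr and Flt1 had a lower fitted level in CSD in all 16 alternatives run, with log2 fold changes of -0.45 to -0.18 and -0.38 to -0.05, and neither had an adjusted p under 0.05 in any. Vegfa lay at a log2 fold change of -0.0012 (SE 0.28) in the main fit, so it had no direction to keep. It was below 0 in 12 of 16 alternatives and had no adjusted p under 0.05 in any. Its log2 fold change was 0.0036 with no filter and -0.41 to 0.21 with 1 library left out. Library totals alone moved the median of all genes to -0.13; relative to that median Kdr lay at -0.31, Flt1 at -0.22 and Vegfa at 0.01. With 1 library left out the differences in log2 ratio were 0.0050 to 0.12 for Flt1 over Kdr, -0.057 to 0.52 for Vegfa over Kdr and -0.062 to 0.45 for Vegfa over Flt1. The count of all genes with an adjusted p under 0.05, 0 in edgeR, was 297 with DESeq2 on all genes, 112 with no filter, 104 with the replicate block and 0 to 230 with 1 library left out. At an unadjusted p under 0.05 the count was 1679, against 2962 when voom weighted libraries by quality and 870 to 2726 with 1 library left out. The cause was not tested. The share of gene reads in controls was 0.0164% without the 10 most abundant genes. Libraries with the same number had deviations from their group means that correlated at -0.0063, -0.057 and 0.17, and the labels do not say what a number marks, so the numbers were not taken as pairs; with the replicate block the log2 fold changes were -0.06 for Vegfa, -0.29 for Kdr and -0.21 for Flt1 (edgeR, adjusted p = 0.904, 0.527 and 0.714), and only control 3 and CSD 3 correlated best with each other. Vegfa was highest in number 1 and lowest in number 3 of both groups. Labelled age rises with the number in each group, so number and labelled age cannot be told apart there. The SE of Vegfa was 0.17 with the replicate block against 0.28 without it. The difference in log2 ratio over 3 pairs gave sign-flip p of 0.75, 0.25 and 0.5 (exact permutation test), where 0.25 is the smallest possible. Between 237 and 591 reads per gene and library put counting error near 5% of a level, well below the spread between libraries except for Kdr in CSD, where the spread was close to it.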
